A study of Mus musculus with 6 samples.

Results

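The genes described here are 51 members of the Wnt signalling pathway, chosen by name. Of these, 50 had a probe set that the array annotation assigned to exactly 1 gene, among 18193 such genes on the array. Tcf7 had none and was not analysed here. Where a gene had several such probe sets, the one with the highest mean over the 6 arrays was used. The RNA came from Flk1-positive cells sorted from day 4 embryoid bodies. Embryoid bodies are clusters in which mouse embryonic stem (ES) cells differentiate after growth in suspension without leukaemia inhibitory factor. Flk1, encoded by Kdr, is a VEGF receptor, and the sorted cells served as a culture counterpart of haemangioblasts, which give rise to blood and endothelial cells. The 2 groups were Ldb1+/+ (wild-type) and Ldb1-/- (knockout) cells, with 3 biological replicates each. LDB1 is an adaptor protein that joins transcription factor complexes and that in blood cells acts with GATA1, TAL1 and LMO2. The labels leave unstated the deleted part of Ldb1, the number of ES cell clones and what the replicate numbers 1 to 3 stand for. The comparison asks which Wnt pathway transcripts differ between haemangioblast-like cells with and without LDB1.

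Wnt proteins are secreted ligands that bind Frizzled receptors together with the co-receptors LRP5 and LRP6. In the canonical branch this stops the destruction of beta-catenin, which enters the nucleus and works with TCF and LEF factors on target genes, many of which encode inhibitors of the pathway itself. In the early embryo Wnt signals act in the primitive streak to form mesoderm, while some secreted Wnt inhibitors mark the mesoderm that forms heart.

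All values below are deposited log2 levels, and differences are knockout minus wild type on that scale. The values of a group are always given in the order of replicate numbers 1, 2 and 3. The number of arrays limits the precision. Array medians over all probe sets ran from 5.71 to 5.77. Wild-type number 3 had the lowest upper quartile, 7.92, with 8.15 to 8.27 elsewhere. It also had the highest lower quartile, 4.37, with 4.22 to 4.28 elsewhere. Control probe sets for the 5′ end of Gapdh read 12.93 in both arrays of number 3 and 10.19 to 11.11 elsewhere. Those for its 3′ end read 14.37 to 14.49 on all 6 arrays, so the ends lay closest in number 3. The 2 arrays of number 3 thus stood apart, but whether they are less or more reliable than the others was not tested. For some members, but not for every one that changed, the difference without both arrays is given too. Deviations from the genotype mean were correlated between the 2 arrays of a number, over all genes, at 0.707, 0.322 and 0.456 for numbers 1, 2 and 3. Because of this each test is given without and with the number as a block.

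The targeted gene did not separate the groups. Ldb1 read 7.78, 7.31 and 8.31 in wild-type and 7.25, 6.60 and 8.25 in knockout arrays. Its knockout array was lower in each number but the groups overlapped, with a mean gap of −0.43 (SE 0.45; limma, adjusted p = 1.00, or 0.481 with the block). In limma with the block its unadjusted p was 0.0332 and the 95% interval −0.82 to −0.05. A probe set outside the deleted part would leave the genotype unchecked. The sorting marker Kdr averaged 12.12 ± 0.33 over the wild-type and 11.70 ± 0.44 over the knockout arrays (SD, n = 3 each). It differed by −0.25, −0.81 and −0.20 in numbers 1, 2 and 3, though the groups overlapped. The mean difference of −0.42 did not pass (limma with the block, unadjusted p = 0.0362 and adjusted p = 0.493).

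No Wnt pathway gene passed the test. Out of 50 members, 0 had an adjusted p under 0.05 in limma, either without the block, where 0.022% of all genes did, or with it, where 0.341% did. The lowest adjusted p among them was 0.783 without and 0.123 with the block, both for Sfrp1. At an unadjusted p under 0.05 there were 3 members without the block, 2 lower and 1 higher. They made up 6% of the members, beside 3.85% of all genes. With the block there were 8, or 16% of the members beside 8.94% of all genes, and 7 of these 8 were lower in knockout cells (5.06% of all genes were called lower and 3.88% higher). The 2 groups did not overlap for 4 members, Sfrp1, Wnt2, Dkk1 and Wif1, or 8% beside 7.92% of all genes. The first 2 were lower (4.47% of all genes) and the last 2 higher (3.45%). In direction, 32 members were lower and 18 higher, with a median of −0.06 beside −0.01 over all genes. The lower share was 64%, beside 53.7% of all genes. Among the 36 members with mean levels at or above the median of all values, 20 were lower. That is 55.6%, beside 49.0% of all genes at such levels. Within numbers 1, 2 and 3 the members' medians were −0.05, −0.12 and −0.05. For the 36 members at or above the median of all values they were −0.10, −0.24 and 0.11. All genes at such levels had medians of −0.05, −0.03 and 0.12, so number 3 went the other way in both.

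What these arrays could exclude varied with the gene. The 95% interval of the difference lay wholly within 1 on either side of 0, a 2-fold change, for 31 of the 50 members without the block and for 41 with it. Over all genes this held for 86.2% and 96.1%. Mean levels of 14 members lay below 5.74, the median of all values, where a probe set may read little more than background.

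**Figure D1:**
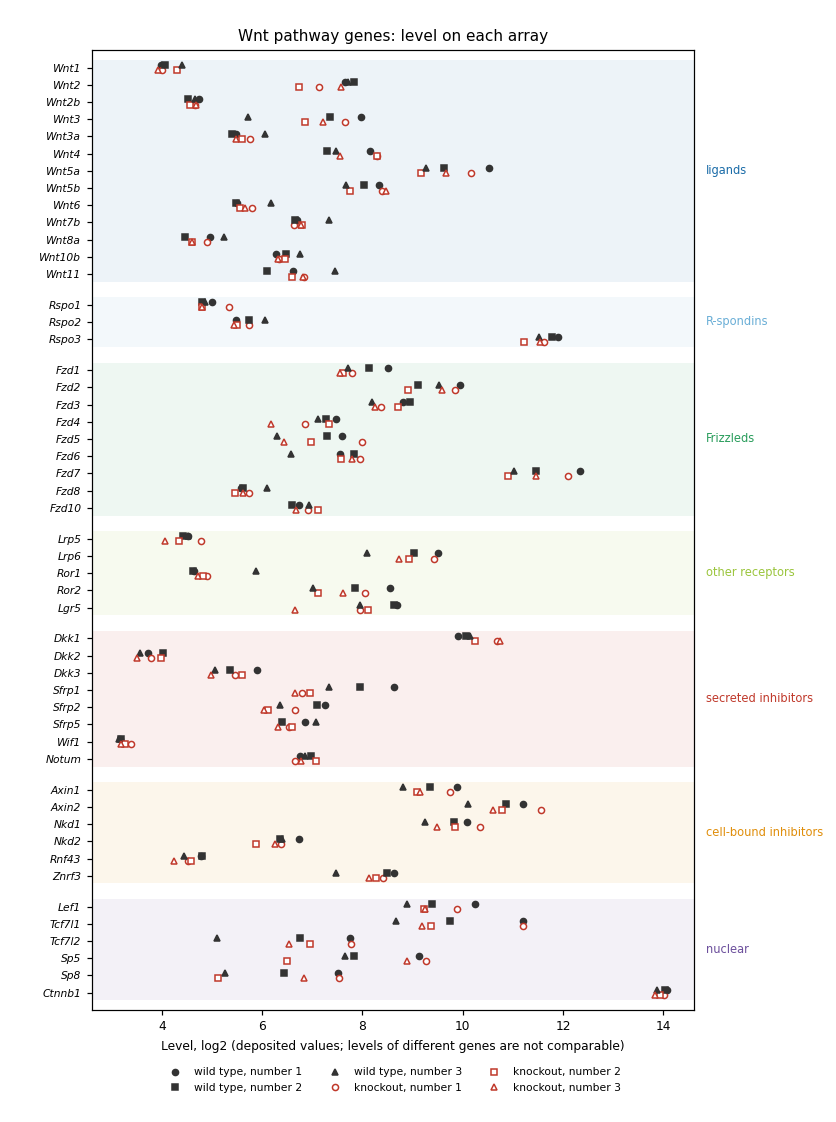
Level of 50 Wnt pathway genes on each array, as deposited log2 values, by role; filled black symbols are wild type, open red symbols knockout, and the shape gives the replicate number. Sfrp1, Wnt2 and Dkk1 show groups that do not overlap, while for Tcf7l1 and Fzd2 the arrays of a number lie closer together than those of a genotype.

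**Figure D2:**
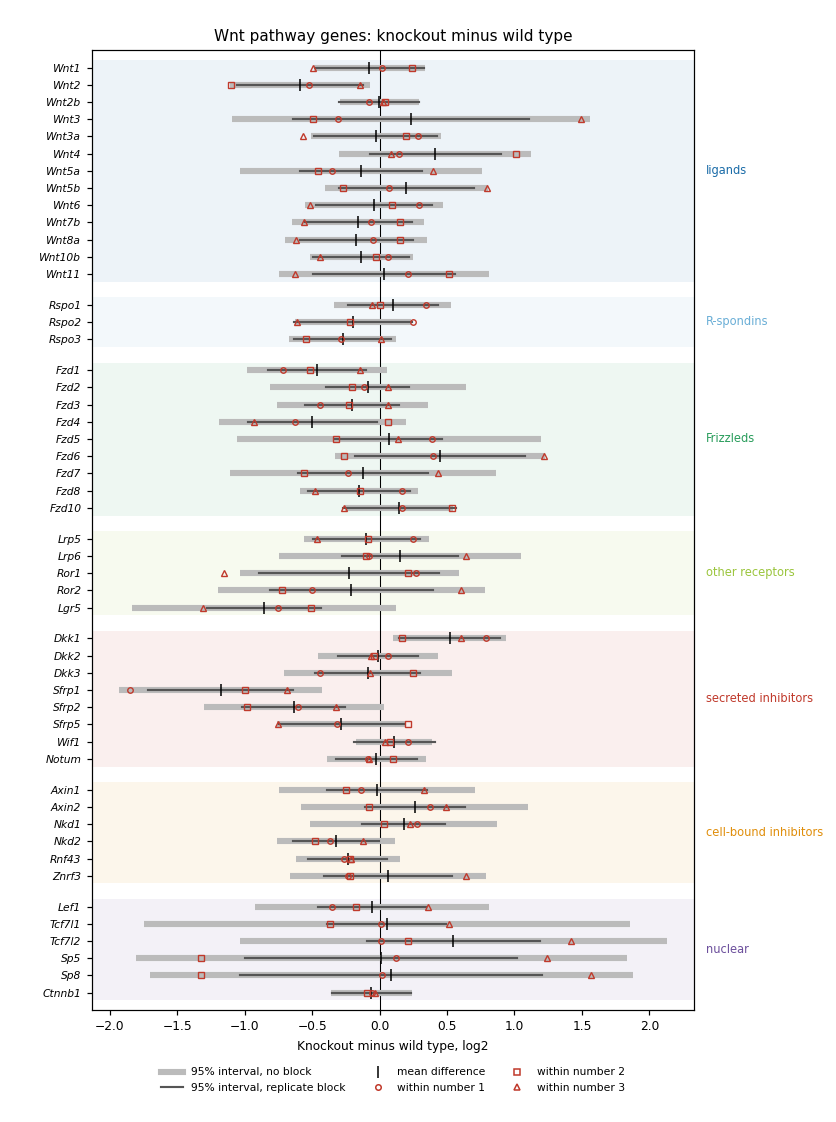
Knockout minus wild type (log2) for the same genes: red symbols are differences within each replicate number, the tick is their mean, and grey and dark bars are 95% limma intervals without and with the number as a block. Sfrp1 has the lowest mean difference (−1.18) and Tcf7l2 the highest (0.55), and the bars of Sp5, Sp8 and Tcf7l1 without the block are among the widest.

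The start regions of 3 members are shown because their data differ in kind: Dkk1 was the only member higher at an unadjusted p under 0.05, Wnt2 was a ligand gene that was lower, and Sp5, a direct Wnt target in textbooks, differed in direction between numbers. They were chosen after their values were seen. Each sequence is the 250 bases before the RefSeq start on the gene's strand in GRCm38.p6, 5′ to 3′. The Dkk1 window is chr19:30549497-30549746 (minus strand), that of Wnt2 chr6:18030446-18030695 (minus strand) and that of Sp5 chr2:70474673-70474922 (plus strand). Capitals mark matches on either strand. The TCF/LEF core searched for was CTTTGAA as well as the form CTTTGAT, the form CTTTGTA and the form CTTTGTT. The GATA motif was AGATAA as well as the form AGATAG, the form TGATAA and the form TGATAG.
Dkk1: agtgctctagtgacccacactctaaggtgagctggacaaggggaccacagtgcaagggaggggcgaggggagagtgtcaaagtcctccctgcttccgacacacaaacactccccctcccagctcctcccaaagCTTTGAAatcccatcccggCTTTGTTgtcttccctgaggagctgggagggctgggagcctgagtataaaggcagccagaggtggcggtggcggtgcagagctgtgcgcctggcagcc
Wnt2: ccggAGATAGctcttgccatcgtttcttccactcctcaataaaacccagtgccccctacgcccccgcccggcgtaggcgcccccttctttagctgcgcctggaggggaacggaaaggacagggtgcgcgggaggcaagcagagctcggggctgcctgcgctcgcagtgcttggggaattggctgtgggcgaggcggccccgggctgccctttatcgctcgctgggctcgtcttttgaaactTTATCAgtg
Sp5: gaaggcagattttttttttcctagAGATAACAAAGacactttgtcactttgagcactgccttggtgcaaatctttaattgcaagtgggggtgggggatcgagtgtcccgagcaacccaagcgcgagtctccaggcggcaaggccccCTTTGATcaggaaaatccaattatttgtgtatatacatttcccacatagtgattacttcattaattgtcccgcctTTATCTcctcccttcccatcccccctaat

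The Dkk1 window held 2 TCF/LEF cores, ending 111 and 92 bases before the start, and 0 GATA motifs. That of Wnt2 held 2 GATA motifs and 0 TCF/LEF cores. Sp5 had 2 of each, and in its first capital run a GATA motif and a reversed TCF/LEF core overlap. RefSeq windows were matched for 34 members (46 windows). A TCF/LEF core lay in 17.4% of them beside 14.8% of all 32851 windows, and a GATA motif in 19.6% beside 26.5%. A match is a run of letters and does not show that a factor binds there.

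Among the 13 Wnt ligand genes, 9 were lower and 4 higher, with a median of −0.04. By number the medians were 0.02, 0.10 and −0.44, so only number 3 was lower. Of the 3 wild-type arrays, number 3 was the highest for 7 of the 13, beside 6909 of all 18193 genes. Wnt2, which encodes a ligand with roles in lung, placenta and heart, read 7.65, 7.83 and 7.71 in wild-type and 7.13, 6.73 and 7.57 in knockout arrays. All 3 knockout arrays lay below the lowest wild-type array, but number 3 did so narrowly. The difference was −0.59 (SE 0.22; 95% interval −1.11 to −0.07), a 1.50-fold lower level that did not pass (limma, adjusted p = 1.00, or 0.411 with the block). By number it was −0.52, −1.10 and −0.14.

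Wnt4, a ligand gene known from kidney and gonad development, had the highest difference of the ligands. It read 8.15, 7.29 and 7.46 in wild-type and 8.29, 8.30 and 7.55 in knockout arrays. The groups overlapped, and the difference of 0.41 (SE 0.30; limma, adjusted p = 1.00, or 0.661 with the block) came mostly from number 2, at 1.01, with 0.14 and 0.08 in numbers 1 and 3. A dimmer Wnt4 probe set differed by 0.33 and was higher in each number. Its mean level of 5.44 lay under the median of all values, and its groups overlapped. Wnt3, the ligand gene required for the primitive streak, split by number, with differences of −0.31, −0.49 and 1.50. The last of these set a wild-type array at 5.72 against a knockout array at 7.21, while the other wild-type arrays read 7.97 and 7.35. The mean difference of 0.23 was −0.40 without both arrays of number 3. Wnt5a and Wnt5b, which encode mostly non-canonical ligands, differed by −0.14 and 0.20, each with both signs among the numbers, and by −0.40 and −0.10 without number 3. The other 8 ligand genes differed by −0.17 to 0.03, and by −0.02 to 0.36 without number 3. Wnt1, Wnt2b, Wnt3a, Wnt6 and Wnt8a were the 5 ligand genes with mean levels under the median of all values.

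R-spondins are secreted proteins that raise the cell's response to Wnt by binding LGR receptors. Rspo3, which is needed for vessels of the placenta and yolk sac, read 11.90, 11.78 and 11.53 in wild-type and 11.62, 11.23 and 11.54 in knockout arrays. The groups overlapped, with a difference of −0.27 (SE 0.17; limma, adjusted p = 1.00, or 0.719 with the block). Its 95% interval, −0.67 to 0.12, excluded a 2-fold change in either direction. A dimmer probe set of Rspo3 gave −0.48. Rspo1 differed by 0.10 and Rspo2 by −0.20, and both had mean levels under the median of all values. Without both arrays of number 3 Rspo2 differed by 0.01. The 3 values of Rspo1 were 5.00, 4.81 and 4.86 in wild-type and 5.35, 4.81 and 4.80 in knockout arrays.

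Of the 9 Frizzled receptor genes, 6 were lower and 3 higher, with a median of −0.12. Fzd1 read 8.52, 8.12 and 7.71 in wild-type and 7.80, 7.61 and 7.56 in knockout arrays. The knockout array was lower in each number, yet the highest knockout array lay above the lowest wild-type one. The difference was −0.46 (SE 0.22; limma, adjusted p = 1.00, or 0.413 with the block), a 1.38-fold lower level. Fzd4, a receptor for Norrin as well as for Wnts in vessels, read 7.48, 7.27 and 7.11 in wild-type and 6.85, 7.33 and 6.18 in knockout arrays. Its knockout arrays of numbers 1 and 3 were low and that of number 2 was not, and without both arrays of number 3 the difference was −0.28. The difference was −0.50 (SE 0.29; limma, adjusted p = 1.00, or 0.527 with the block).

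Fzd6, a receptor of planar cell polarity, went the other way. It read 7.56, 7.83 and 6.57 in wild-type and 7.96, 7.57 and 7.79 in knockout arrays. Its mean difference, 0.45 (SE 0.33; limma, adjusted p = 1.00, or 0.750 with the block), combined 1.22 in number 3 with −0.27 in number 2. Without both arrays of number 3 it was 0.065. Fzd7, a receptor of mesoderm and ES cells, read 12.34, 11.46 and 11.02 in wild-type and 12.10, 10.90 and 11.45 in knockout arrays, a difference of −0.12 (95% interval −1.11 to 0.87). Fzd2, Fzd3, Fzd5, Fzd8 and Fzd10 differed by −0.20 to 0.15.

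The other receptor genes had a median of −0.21, with 4 of 5 lower. Lgr5, a receptor for R-spondins and a known Wnt target gene, read 8.69, 8.62 and 7.96 in wild-type and 7.94, 8.11 and 6.65 in knockout arrays. The knockout array was lower in each number, by 0.75, 0.51 and 1.31, and the groups overlapped because wild-type number 3 was low too. The difference of −0.86 (SE 0.41), a 1.81-fold lower level, did not pass (limma, adjusted p = 1.00, or 0.157 with the block). The co-receptor gene Lrp6 read 9.51, 9.03 and 8.09 in wild-type and 9.43, 8.92 and 8.73 in knockout arrays, a difference of 0.15 (SE 0.38) that was −0.092 without both arrays of number 3. Lrp5, its relative, differed by −0.10 at a level under the median. Ror2, a receptor for WNT5A, read 8.55, 7.85 and 7.01 in wild-type and 8.05, 7.12 and 7.61 in knockout arrays. Its differences were −0.50, −0.73 and 0.60, so that number 3 opposed the others and the mean was −0.21.

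Of the 8 secreted inhibitor genes 6 were lower and 2 higher, with a median of −0.06. Sfrp1, which encodes a Frizzled-related protein that binds Wnt ligands, read 8.64, 7.95 and 7.34 in wild-type and 6.79, 6.95 and 6.66 in knockout arrays. Every knockout array lay below every wild-type array, and the knockout arrays were close together while the wild-type ones spread over more than 1 unit. Means were 7.98 ± 0.65 and 6.80 ± 0.15 (SD, n = 3). The difference of −1.18 (SE 0.32; 95% interval −1.93 to −0.43) was a 2.26-fold lower level (limma, unadjusted p = 0.00783 and adjusted p = 0.783, or adjusted 0.123 with the block). With its 5 probe sets averaged the difference was −0.46.

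Sfrp2, of the same family, was lower in each number, by 0.60, 0.98 and 0.33. It read 7.25, 7.10 and 6.36 in wild-type and 6.65, 6.12 and 6.04 in knockout arrays, so that the groups overlapped through wild-type number 3. The difference was −0.64 (SE 0.28; limma, adjusted p = 1.00, or 0.255 with the block). Sfrp5, another of the family, differed by −0.28, with number 2 opposed to the others, and by −0.05 without both arrays of number 3.

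Dkk1, whose product blocks LRP5 and LRP6 and which is itself a Wnt target, stood higher in knockout cells. It read 9.90, 10.07 and 10.14 in wild-type and 10.69, 10.24 and 10.74 in knockout arrays. The groups did not overlap, although knockout number 2 lay close to wild-type number 3. The difference was 0.52 (SE 0.17; 95% interval 0.10 to 0.93), a 1.43-fold higher level that did not pass (limma, unadjusted p = 0.0217 and adjusted p = 1.00, or adjusted 0.360 with the block). Wif1, another ligand-binding inhibitor, read 3.15 to 3.18 in wild-type and 3.19 to 3.38 in knockout arrays. These groups did not overlap either, but they differed by 0.11 at a level far under the median of all values. Dkk2, Dkk3 and Notum, a lipase that inactivates Wnt ligands, differed by −0.01, −0.09 and −0.02.

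The inhibitors that act in or on the receiving cell, several of which are feedback targets, differed by −0.32 to 0.26. Axin2, a scaffold of the beta-catenin destruction complex and a standard readout of Wnt signalling, read 11.19, 10.86 and 10.11 in wild-type and 11.56, 10.79 and 10.60 in knockout arrays. The groups overlapped over most of their range, and the difference of 0.26 (SE 0.35; 95% interval −0.58 to 1.10) did not pass (limma, adjusted p = 1.00, or 0.751 with the block). With the block its interval was −0.11 to 0.63. Nkd2, which encodes a Dishevelled-binding inhibitor, read 6.74, 6.36 and 6.39 in wild-type and 6.37, 5.89 and 6.27 in knockout arrays. It was lower in each number, with a difference of −0.32 (SE 0.18; limma, adjusted p = 1.00, or 0.552 with the block). Its relative Nkd1 was higher in each number, with a mean of 0.18 (95% interval −0.51 to 0.87). Other Nkd1 probe sets, also with mean levels above the median, differed by 0.30, 0.10 and −0.36. Rnf43, a ligase that removes Frizzled receptors, was lower in each number, by 0.27, 0.22 and 0.21, at a level under the median. Znrf3, a ligase of the same kind, and Axin1 differed by 0.06 and −0.02.

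By the probe sets used, beta-catenin transcript was the most tightly bounded of the nuclear arm. Ctnnb1 read 14.06, 14.04 and 13.87 in wild-type and 14.01, 13.94 and 13.83 in knockout arrays. All 6 arrays lay within a narrow range, and the difference of −0.06 (SE 0.13; 95% interval −0.36 to 0.24) excluded a 2-fold change by this probe set. Dimmer Ctnnb1 probe sets, with mean levels of 10.01 and 6.67, were less tightly bounded. They differed by −0.29 (SE 0.44) and 0.01 (SE 1.18). At such high readings an array can respond less than in proportion, which was not tested. Lef1 and Tcf7l1, which encode DNA-binding partners of beta-catenin, differed by −0.06 and 0.05. Their intervals without the block were −0.92 to 0.81 and −1.75 to 1.86, and with it −0.46 to 0.35 and −0.39 to 0.50.

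Tcf7l2 had the highest difference of any member but also one of the widest intervals. It read 7.76, 6.75 and 5.11 in wild-type and 7.77, 6.96 and 6.53 in knockout arrays. Wild-type number 3 was far below the rest, and the difference of 0.55 (SE 0.66; limma, adjusted p = 1.00, or 0.657 with the block) was 0.01, 0.21 and 1.42 by number. It was 0.11 without both arrays of number 3, and −0.17 with only the wild-type array of that number left out. Another Tcf7l2 probe set, with a mean level of 6.56 beside 6.81 for the one used, differed by −0.001. Dimmer ones differed by 0.04 and 0.45. Sp5 and Sp8, zinc finger factor genes that respond to Wnt, differed in sign between numbers. Sp5 differed by 0.12, −1.33 and 1.24 in numbers 1, 2 and 3, and Sp8 by 0.02, −1.32 and 1.56. Both were low in knockout number 2 and higher in knockout than in wild-type number 3, and their means of 0.01 and 0.09 average these opposed values. Without both arrays of number 3 they differed by −0.60 and −0.65.

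Most of the spread of Wnt pathway genes lay between replicate numbers rather than between genotypes. Differences between numbers held a median of 55.9% of a member's total sum of squares over the 6 arrays, and those between genotypes 7.46%. These shares have 40% and 20% of the degrees of freedom. Over all genes the medians were 53.4% and 8.93%, so the members resembled other genes here. For 40 of the 50 members the share between numbers was the larger. The nuclear genes had a median of 81.5% between numbers, up to 96.5% for Tcf7l1, whose arrays read 11.19 and 11.21 in number 1 and 8.67 and 9.18 in number 3. All 6 nuclear genes and 5 of 6 cell-bound inhibitor genes read highest in number 1 in both genotypes. Over the 50 members this held for 22, or 44.0%, beside 24.7% of all genes. Only Sfrp1, Dkk1 and Wnt2 had a larger share between genotypes than between numbers and the rest together, at 70.0%, 68.5% and 58.8%. These shares are descriptions, and what sets the numbers apart was not tested.

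**Figure D3:**
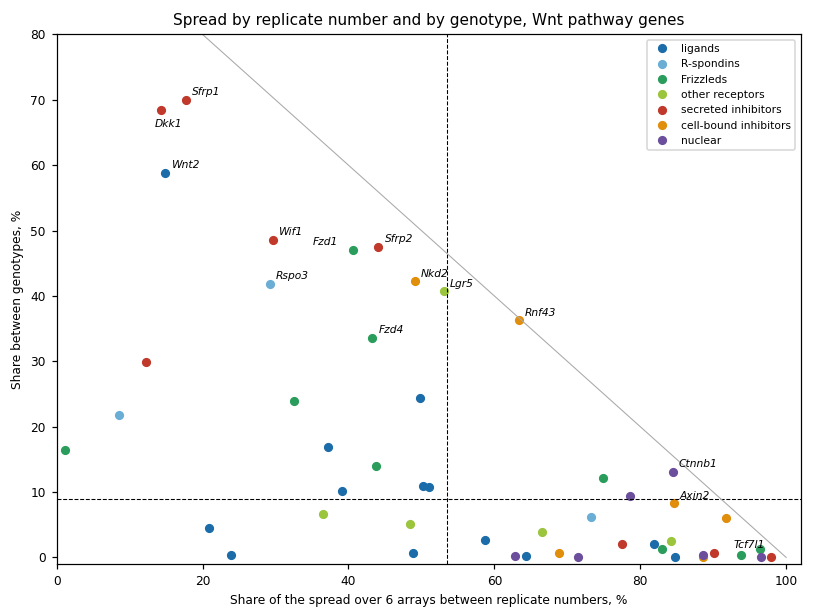
Share of each gene's sum of squares over 6 arrays that lies between replicate numbers (x axis, %) and between genotypes (y axis, %), coloured by role; dashed lines are medians over all genes and the grey line marks a sum of 100%. Most members lie at the lower right, and Sfrp1, Dkk1 and Wnt2 lie at the upper left.

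Without both arrays of number 3 the members' picture changed. In that fit, which had the number as a block, 6 members passed, all lower in knockout cells (12% of members, beside 4.48% of all genes called and 3.14% called lower). Sfrp1 fell by 1.42 (limma, adjusted p = 0.000607), Wnt2 by 0.81 (0.00927), Sfrp2 by 0.79 (0.00617), Lgr5 by 0.63 (0.0178), Fzd1 by 0.62 (0.0189) and Ror2 by 0.61 (0.0198). With 2 arrays per genotype and the block, each gene's own spread rested on a single degree of freedom. Without both arrays of number 2 the blocked fit called 2 members, Sfrp1 at −1.27 (limma, adjusted p = 0.0128) and Lgr5 at −1.03 (0.0260), beside 1.47% of all genes called and 0.72% called lower. Without those of number 1 it called 0, with 5 of 50 members at an unadjusted p under 0.05, beside 5.16% of all genes. Ror2 was singled out after its values were seen, and its difference in number 3 had the opposite sign.

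Several members were read by more than 1 probe set, and these did not always concur. The 50 members had 103 single-gene probe sets, and 33 members had more than 1. Of the 53 probe sets not used above, 23 differed in the opposite direction from the one used. Among the 28 of these 53 with means at or above the median level, 13 did. Tested one by one, 0 of the 103 passed in limma without or with the block (lowest adjusted p = 0.191, for Sfrp1 with the block). At an unadjusted p under 0.05 there were 7 of the 103 without and 14 with the block, beside 3.17% and 7.78% of all 34945 single-gene probe sets.

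Dkk1 was higher by both of its probe sets. The second read 8.19, 8.24 and 7.29 in wild-type and 9.06, 8.36 and 8.89 in knockout arrays, a difference of 0.86 with groups that did not overlap. For Sfrp1 another probe set read 6.85, 6.21 and 5.70 in wild-type and 5.38, 5.55 and 5.37 in knockout arrays, again without overlap, at −0.82. The other 3 of Sfrp1 differed by −0.28, −0.10 and 0.05. A second Fzd4 probe set differed by −0.75.

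Ror1, a receptor related to Ror2, differed by −0.22 by the probe set used and by −1.45 by another, both with mean levels under the median of all values. The latter read 6.24, 5.50 and 3.91 in wild-type and 3.74, 3.98 and 3.58 in knockout arrays, so wild-type numbers 1 and 2 stood above the other 4 arrays. It did not pass (limma, adjusted p = 1.00, or 0.341 with the block). By the probe set used, Ror1 differed by 0.24 without both arrays of number 3. The 2 dimmer probe sets of Ctnnb1 followed the number instead. One read 5.72, 5.62 and 8.66 in wild-type and 5.54, 5.53 and 8.95 in knockout arrays, high in number 3 of both genotypes like the 5′ control of Gapdh. The part of RNA integrity or labelling in this was not tested.

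**Figure D4:**
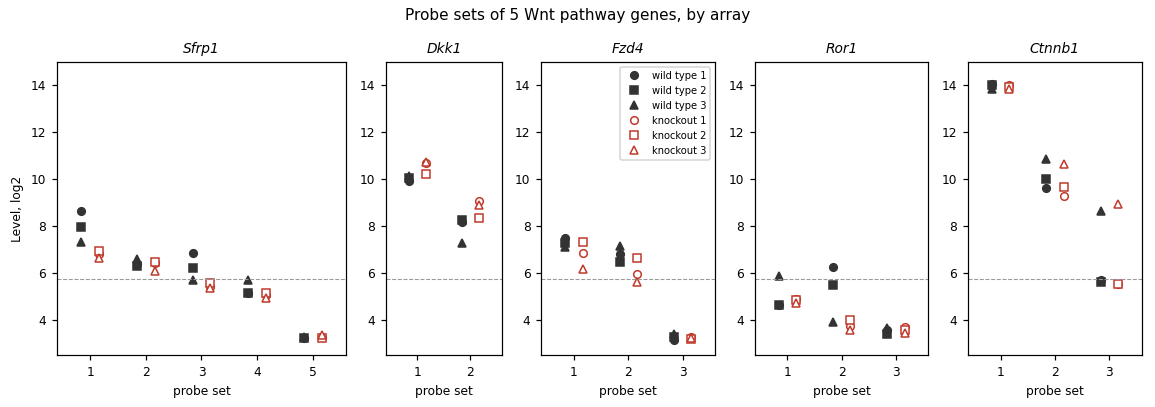
Log2 level of every single-gene probe set of Sfrp1, Dkk1, Fzd4, Ror1 and Ctnnb1 on each array, ordered by mean within a gene; filled black symbols are wild type, open red symbols knockout, shapes give the number and the dashed line is the median of all values. Both Dkk1 probe sets are higher in knockout cells, and the third Ctnnb1 probe set is near 9 only in number 3.

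Members were spread over most chromosomes, and 7 measured ones lie on chromosome 11 and 2 on chromosome 8, whose genes as a whole were shifted. The 1452 genes of chromosome 11 had a median of −0.16 and the 940 of chromosome 8 one of 0.15. The chromosome 11 members Wnt3, Wnt3a, Axin2, Fzd2, Notum, Rnf43 and Znrf3 had a median of −0.02, with 3 of 7 higher. Relative to its chromosome Axin2 differed by 0.40, which did not pass (limma, adjusted p = 1.00, or 0.574 with the block). Sfrp1, on chromosome 8, went against its chromosome, at −1.30 relative to it. Nkd1, on the same chromosome, was at 0.18, close to the chromosome's median.

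The rest of the pathway was described from a second list. Of its 72 other genes, 70 were measured, 47 lower (67.1%, beside 53.7% of all genes) and 23 higher, with a median of −0.06. None passed in limma in either fit (lowest adjusted p = 1.00, or 0.123 with the block). At an unadjusted p under 0.05 there was 1 without the block and 6 with it, 3 lower and 3 higher, or 8.57% beside 8.94% of all genes. The groups did not overlap for 1 of the 70, beside 7.92% of all genes. Prickle2, a planar polarity gene, differed by −0.75 (−0.89, −0.49 and −0.88 by number), Dvl2, a relay from the receptor, by −0.41 and Cdx4, a Wnt target in posterior mesoderm, by −0.56. The R-spondin receptor gene Lgr4 differed by 0.47, the opposite direction from Lgr5. Tnks, which encodes an enzyme that marks Axin for breakdown, and Bcl9l, a co-factor of beta-catenin, differed by 0.34 and 0.41. The 15 genes of the cytoplasmic relay and destruction complex ranged from −0.41 to 0.34, with a median of −0.10.

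Of 40 markers of cell types that the sort could hold, Hand2 and Gata1 passed, and only with the block. Hand2, a cardiac mesoderm factor gene, fell by 2.70 (limma with the block, adjusted p = 0.00103, or 0.174 without it). Gata1, a red cell factor gene, fell by 1.31 (limma with the block, adjusted p = 0.0194, or 0.0542 without it). All 6 cardiac mesoderm markers (Mesp1, Hand1, Hand2, Gata4, Tbx20 and Myl7) were lower, 3 of them in each number, with a median of −0.82. All 6 visceral and definitive endoderm markers were lower too, 2 of them in each number, with a median of −0.18. Over all genes 53.7% were lower, and 2717 of 18193 were lower in each number. The summed level of the cardiac markers was 59.9 to 65.7 in wild-type and 54.6 to 56.9 in knockout arrays, so the groups did not overlap. The sums of all other lists overlapped between the groups, but a sum can hold opposed differences. Of the 8 haemangioblast and early blood markers, 5 were lower and 3 higher. At an unadjusted p under 0.05 in limma with the block there were 5, beside 8.94% of all genes. Besides Gata1 these were Itga2b at −0.90, Runx1 at −0.88, Kdr at −0.42 and Lmo2 at 0.62. Of 5 pluripotency markers 4 were higher, with sums of 35.3 to 37.3 and 36.8 to 39.8. Sums over 5 primitive streak and paraxial markers were 41.5 to 43.7 and 41.4 to 44.1, and over 6 endothelial markers 31.7 to 33.1 and 28.4 to 36.8. Haemangioblast and early blood markers summed to 76.1 to 79.7 and 73.0 to 78.6, endoderm markers to 34.9 to 35.8 and 31.8 to 35.3, and neural markers to 22.2 to 23.7 and 21.7 to 23.9. In bulk RNA fewer cells of a type and less RNA per cell cannot be told apart. The part of cell mix in the Sfrp1, Sfrp2, Wnt2, Lgr5 or Dkk1 values was not tested.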

How the data were processed

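Per the labels, RNA from Flk1-positive day 4 embryoid body cells was hybridised to 6 Affymetrix mouse expression arrays. The deposited values are log2 levels per probe set, and per the submitters' processing notes they were made with affy and RMA, in versions not given in the sources used here. Of 45101 probe sets, 34945 were assigned to exactly 1 gene and were not controls. The probe set with the highest mean represented each of 18193 genes.

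Groups were compared with limma 3.58.1 (lmFit, eBayes) in R 4.3.3, two-sided, with Benjamini-Hochberg adjustment over all genes and a threshold of 0.05. A blocked fit added the replicate number, since the correlation of same-numbered arrays was above 0.1 for every number. P-values measure the spread between these samples. The fit was tested on simulated data. Members described array by array had an unadjusted p under 0.05, groups without overlap or the extreme difference of their role. Ctnnb1 was included. Wnt3, Fzd7, Ror1, Ror2, Sp5 and Tcf7l1 were added after their values were seen. Alternatives were a block, left-out arrays, array weights, renewed normalization, chromosome centring and other probe set rules. Members and lists were chosen with earlier results of these data known. Motifs came from RefSeq windows. Figures used matplotlib 3.10.9.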

Additional observations from a re-analysis of the deposited data

How the results depend on the processing

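Over all genes, 4 passed the threshold without the block. The count was 1 to 6 with 1 array left out, 62 with the replicate block and 50, 267 and 815 with the block and without numbers 1, 2 and 3. It was 68 with array weights, 7 with chromosome medians subtracted, 85 with these and the replicate block, and 50 probe sets when each was tested with the replicate block, an alternative chosen after seeing the data. The member count stayed at 0 except with the block and without number 2 (2 members) or number 3 (6). The members' median difference of −0.06 ranged from −0.19 to 0.021 with 1 array left out and was −0.0073 with probe sets averaged.

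Sfrp1 was lower, with an unadjusted p under 0.05, in 20 of 20 settings (−1.50 to −0.46). Dkk1 was higher in 20 of 20 (0.38 to 0.69) and below that p in 15. Wnt2, Wnt4, Sfrp2, Lgr5, Fzd1, Fzd4, Nkd2, Rspo3 and Ctnnb1 kept their sign, but 1 array moved several by over 1.5 times. Without knockout number 3 Lgr5 was −0.40, Fzd4 −0.20 and Wnt4 0.66. Without knockout number 2 Wnt2 was −0.38, Fzd4 −0.77, Nkd2 −0.18 and Rspo3 −0.16. Without wild-type number 1 Fzd1 was −0.26, Nkd2 −0.20 and Wnt4 0.67, and without wild-type number 2 Wnt4 was 0.24 and Fzd6 0.71. With 1 array left out the sign could turn for Tcf7l2 (−0.17, without wild-type number 3, to 1.16), Axin2 (−0.045 to 0.50), Lrp6 (−0.24 to 0.47), Rspo1 (−0.083 to 0.19) and Ror2 (−0.61 to 0.17). With the block and without a whole number it turned for Rspo1 (−0.027, number 1), Ror2 (0.051, number 2) and Lrp6 (−0.092, number 3). With array weights it turned for Fzd6 (−0.061) and Lrp6 (−0.081). The cause was not tested.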
